A study of Homo sapiens
Mus musculus with 17 samples.

Results

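The genes described are 31 human genes of sterol and fatty acid synthesis that are controlled by the sterol regulatory element binding proteins (SREBPs), measured in xenograft tumours of the human bladder cancer line VM-CUB-1. They were taken as a list by gene symbol, with earlier results of these data known. All 31 were found among the 23368 human gene symbols of the table. The list holds 17 enzymes of the sterol pathway, 10 enzymes of fatty acid synthesis and modification, and 4 regulators or sterol carriers. Tumours were grown in athymic nude mice of the strain Hsd:Athymic Nude-Foxn1nu, which lack a functional thymus and so keep no normal T cell compartment. For 7 days the mice received vehicle (0.5% methylcellulose, 0.1% Tween80; 4 tumours), alpelisib at 25 mg/kg (4 tumours), nintedanib at 40 mg/kg (5 tumours) or both drugs at these doses (4 tumours). Alpelisib (BYL719) blocks phosphoinositide 3-kinase alpha, and nintedanib inhibits the VEGF, FGF and PDGF receptors. All tumours derive from 1 cell line, described by the submitters as resistant to nintedanib, and the labels do not say that each tumour came from a separate mouse, so the p-values reflect only how these samples vary, which may be technical in part. The sample titles name 3 nintedanib responders and 2 non-responders, whereas the series text gives these numbers the other way round. The titles were followed. The labels call the source a PDX, although the cells are an established line.

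Cells make cholesterol and fatty acids from acetyl-CoA. SREBPs are held in the endoplasmic reticulum membrane by SCAP and INSIG proteins while sterols are plentiful; when sterols fall, they are carried to the Golgi, cut by proteases and released to the nucleus, where they switch on the enzymes of both pathways. SREBF2 encodes the form that acts mainly on sterol genes and SREBF1 the form that acts mainly on fatty acid genes, and signalling from phosphoinositide 3-kinase through AKT and mTORC1 is known to raise SREBP activity. The design allows the question whether the sterol and fatty acid branches differed between treated and vehicle tumours.

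Human reads, which mostly come from tumour cells, numbered 7429753 to 25654879 per library (median 20312801). Values are normalized counts, and changes are differences of means on the log2(normalized count + 1) scale ± standard error (SE) from limma. The threshold was an adjusted p of 0.05 (Benjamini-Hochberg) over the 14533 human genes whose mean reached 10 normalized counts; all 31 genes of the list entered this test. The vehicle library Vehicle 3 stood apart, with the fewest human reads. Rn45s and Lars2, counted here together as ribosomal transcripts, made up 72.92% of its mouse reads. This share was 60.06% in Combination 4 and 1.726% to 44.1% in the other 15 libraries. Without Vehicle 3, the change moved by over 1.5 times or turned sign for 15 of the 31 genes after alpelisib, 23 after nintedanib and 16 after the combination. For the genes described below the value without Vehicle 3 is given where that happened in the value shown. The epithelial and urothelial markers summed to at least 236927 normalized counts in every library and 0 of the 11 were at 0 throughout a group. Their sums were 236927 to 489629 in vehicle, 521784 to 832670 in alpelisib, 383403 to 807989 in nintedanib and 649165 to 1182433 in combination tumours. These sums were mostly counts of KRT5, KRT14, KRT17 and KRT6A. A change above 0 was found for 9, 8 and 9 of the 11 after alpelisib, nintedanib and the combination, and below 0 for 2, 3 and 2. Of all tested genes 52.0%, 49.8% and 47.2% lay above 0. EPCAM was at 1178 to 2655 in vehicle and 760.1 to 1266 in alpelisib tumours. Squamous differentiation markers summed to 41431 to 59244 in vehicle, 73507 to 131779 in alpelisib, 42464 to 110025 in nintedanib and 50263 to 119291 in combination tumours. KRT13 was a large part of these sums in vehicle tumours, at 19338 to 42857. It was at 17630 to 73518 in alpelisib, 13527 to 40918 in nintedanib and 12046 to 34320 in combination tumours. Of these 16 squamous genes 16, 14 and 15 had a change above 0 after alpelisib, nintedanib and the combination, with medians of 1.38, 1.47 and 1.55. Of them 11, 8 and 9 were higher at an unadjusted p under 0.05 (18.6%, 7.12% and 18.1% of all tested genes in either direction), and 2 passed limma's adjusted test in the combination, as did 0.358% of all genes. These medians were larger than those of any class of the list given below. In bulk tissue, fewer cells of a type and less RNA per cell cannot be told apart, and the part of such markers in the results below was not tested.

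No gene of the list passed the test in any of the comparisons. The count was 0 of 31 for alpelisib against vehicle (0.0% of all tested genes called), 0 of 31 for nintedanib against vehicle (0.0%) and 0 of 31 for the combination against vehicle, where 0.358% of all tested genes were called. It was also 0 of 31 for the combination against alpelisib (0.0%), against nintedanib (0.0%), for responders against non-responders (0.0%) and for the departure from additivity (0.0%), that is, combination plus vehicle with each single agent subtracted. edgeR and limma-voom on the recovered reads likewise called 0 of the 31 in all 7 comparisons, where they called 0.275% and 0.33% of all genes in the combination against vehicle. DESeq2 called 1 of the 31, INSIG1 in the combination against vehicle, where it called 3.41% of all genes. In the alpelisib and nintedanib comparisons DESeq2 called 0 of the 6 genes of the list to which it gave an adjusted p, against 17.2% and 1.29% of the 1008 genes that received one. At an unadjusted p under 0.05 by limma, alpelisib tumours had 5 of the 31 genes higher (11.5% of all tested genes) and 2 lower (7.17%). Combination tumours had 3 higher (11.2% of all genes) and 3 lower (6.89%), and nintedanib tumours had 0 (7.12% of all genes in either direction). By these shares the list stood near the background of all genes.

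**Figure D1:**
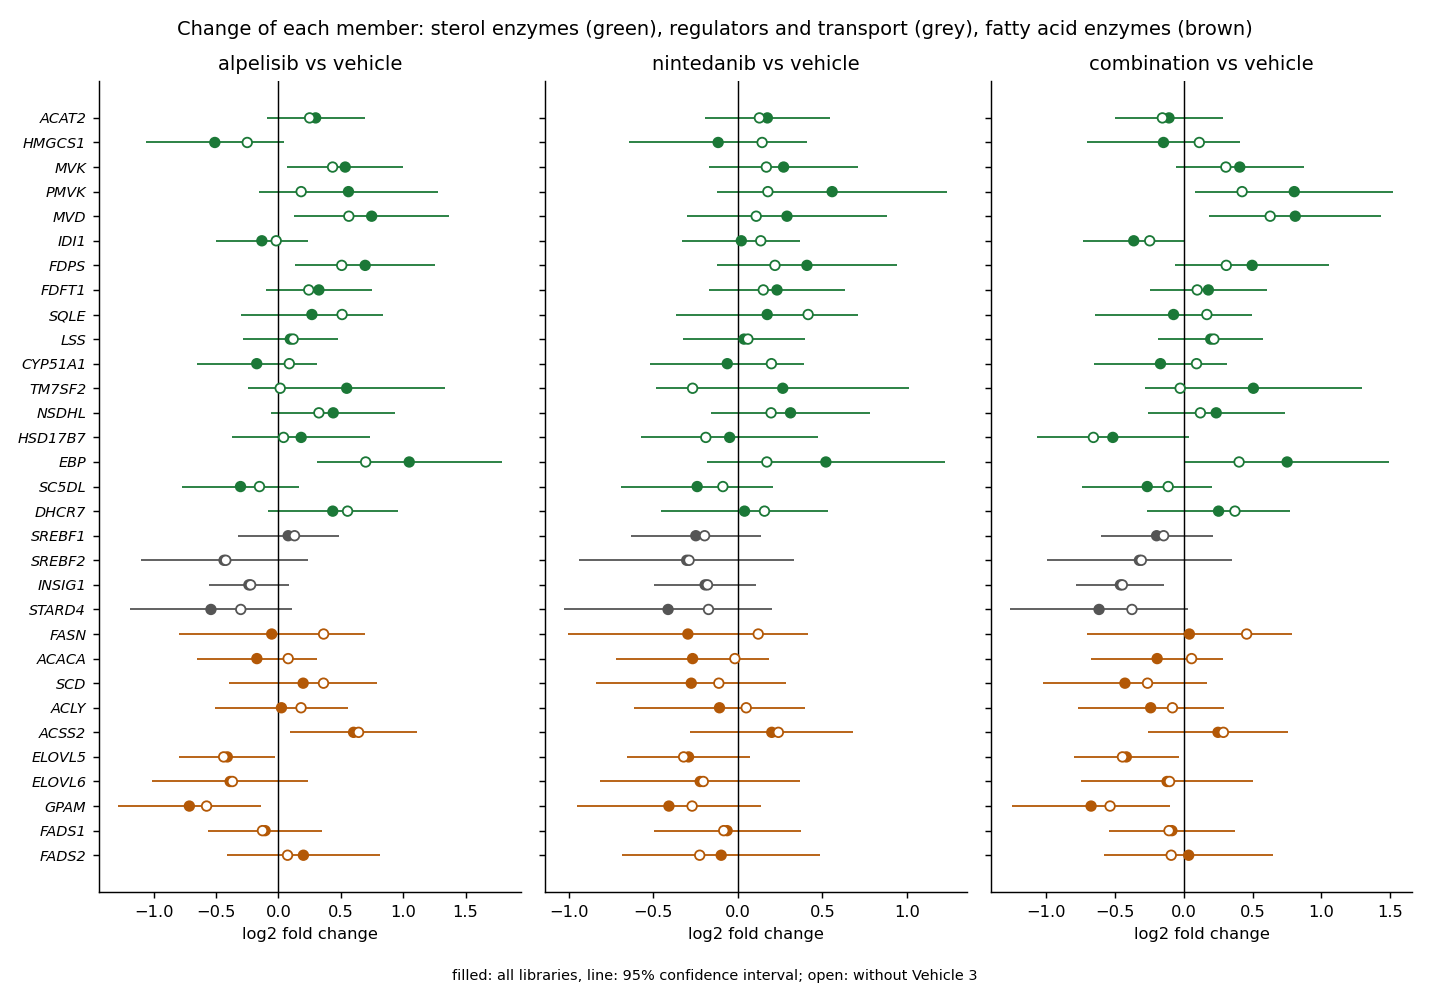
Change of each of the 31 genes against vehicle after alpelisib, nintedanib and the combination (horizontal axis, log2 scale; points are limma estimates and bars 95% intervals). Of all these estimates 0 passed at an adjusted p under 0.05; the sterol enzymes lie more often to the right of 0 than the fatty acid enzymes.

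The sterol enzymes are taken in the order of the pathway. The first steps, from acetyl-CoA to farnesyl diphosphate, are made by ACAT2, which joins acetyl-CoA units, HMGCS1, which forms HMG-CoA, the mevalonate kinases MVK and PMVK, the decarboxylase MVD, the isomerase IDI1 and FDPS, which makes farnesyl diphosphate. Within this stretch MVD, MVK and FDPS had an unadjusted p under 0.05 after alpelisib.

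MVD was at 718.3, 605.8, 405.2 and 699.4 normalized counts in Vehicle 1 to 4 and at 871.6, 740.1, 1353 and 1122 in Alpelisib 1 to 4. Nintedanib tumours had 678.6 and 964.1 (non-responders) and 954.8, 752.6 and 426.0 (responders), and Combination 1 to 4 had 606.9, 1203, 1133 and 1414. All 4 alpelisib tumours lay above all 4 vehicle tumours, while Combination 1 lay inside the vehicle range. The change was 0.75 ± 0.30 after alpelisib (adjusted p = 0.233) and 0.81 ± 0.30 after the combination (adjusted p = 0.173). Without Vehicle 3, the lowest of all libraries for MVD, these changes were 0.56 and 0.63.

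FDPS measured 2729, 2891, 1928 and 4355 in the vehicle tumours and 3535, 3472, 5525 and 6710 after alpelisib. Nintedanib non-responders measured 3542 and 4914, responders 4240, 3469 and 3032, and the combination tumours 3423, 5482, 3422 and 4097. Vehicle 4 lay within the range of each treated group, so no treated group stood clear of the vehicle tumours. The change of FDPS was 0.70 ± 0.27 after alpelisib (adjusted p = 0.228), 0.41 ± 0.25 after nintedanib and 0.50 ± 0.27 after the combination. Without Vehicle 3, its lowest library, these were 0.51, 0.22 and 0.31. FDPS has processed pseudogene copies in the genome, and how reads shared with them were counted is not given in the sources used here.

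MVK, the first mevalonate kinase, was at 345.5, 350.7, 282.9 and 434.9 in vehicle and at 499.4, 374.6, 648.3 and 544.1 in alpelisib tumours. It was at 359.3 and 575.8 in non-responders, 435.4, 429.6 and 343.5 in responders, and 336.6, 535.5, 481.8 and 532.0 in combination tumours. Alpelisib 2 alone overlapped the vehicle range, and the change of 0.54 ± 0.22 after alpelisib had an adjusted p of 0.24. PMVK, the next kinase, was chosen for description after its values were seen: Vehicle 3 held 325.0 against 827.0 to 1062 in the other vehicle tumours, and the combination tumours held 790.4, 1483, 1148 and 1818. Its change after the combination was 0.80 ± 0.34 (adjusted p = 0.229) with Vehicle 3 and 0.42 ± 0.28 without it.

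HMGCS1 and IDI1 had changes below 0 after alpelisib. HMGCS1, also chosen after its values were seen, measured 1986, 1864, 4066 and 2087 in vehicle and 1696, 1897, 1838 and 1289 in alpelisib tumours. It measured 1901 and 2002 in non-responders, 1830, 3424 and 2077 in responders, and 2839, 1705, 2514 and 1715 in combination tumours. Vehicle 3 and Nintedanib responder 2 were far above the others of their groups. The change of HMGCS1 after alpelisib was -0.51 ± 0.26 (adjusted p = 0.29), and -0.25 ± 0.23 without Vehicle 3. IDI1 was the steadiest enzyme of the pathway, with a standard deviation (SD) within groups of 0.21 on the log2 scale. Its combination values (833.8, 988.2, 848.1 and 956.9) all lay below those of the nintedanib tumours (1045 to 1308), a change of -0.38 ± 0.17 between these groups (adjusted p = 0.988). ACAT2, whose end overlaps the gene TCP1 on the opposite strand so that unstranded reads cannot be told apart there, had changes of 0.30, 0.17 and -0.11 after alpelisib, nintedanib and the combination.

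From farnesyl diphosphate onwards, FDFT1 makes squalene, SQLE oxidises it, LSS closes the ring to lanosterol, CYP51A1 and TM7SF2 remove a methyl group and reduce the product, NSDHL and HSD17B7 act in demethylation, EBP shifts a double bond, and SC5DL and DHCR7 finish the way to cholesterol. SC5DL is the older symbol of SC5D, kept by the table. EBP had the largest change of the 31 genes in the alpelisib comparison.

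EBP measured 1420, 1400, 551.7 and 1549 in vehicle and 1630, 1674, 3559 and 3206 in alpelisib tumours. The nintedanib values were 1676 and 2353 (non-responders) and 1890, 1364 and 1159 (responders), and the combination values 1314, 2804, 1434 and 2588. Every alpelisib tumour exceeded every vehicle tumour, but Alpelisib 1 and 2 did so narrowly, and Combination 1 and 3 lay close to the vehicle tumours other than Vehicle 3. The change was 1.05 ± 0.35 after alpelisib (adjusted p = 0.21), 0.52 ± 0.33 after nintedanib and 0.75 ± 0.35 after the combination (adjusted p = 0.269). Without Vehicle 3 these became 0.70 ± 0.31, 0.17 ± 0.30 and 0.40 ± 0.31.

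HSD17B7 was lowest on average in the combination tumours, with its largest change against alpelisib alone. It was at 151.6, 158.7, 110.3 and 181.7 in vehicle, and at 147.9, 167.9, 197.9 and 163.1 in alpelisib tumours. The remaining values were 165.6 and 141.5 in non-responders, 164.9, 102.3 and 152.4 in responders, and 123.8, 155.2, 61.47 and 96.73 in combination tumours. Combination 2 lay among the alpelisib tumours and the other 3 combination tumours below them. The change of the combination against alpelisib was -0.70 ± 0.26 (adjusted p = 0.943), and against vehicle it was -0.52 ± 0.26 (adjusted p = 0.311). Without Combination 3, its lowest library, the change against alpelisib was -0.45 ± 0.25. Without Vehicle 3, the lowest vehicle tumour for HSD17B7, the change against vehicle was -0.66. HSD17B7 has a near-identical pseudogene, so its counts are uncertain.

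SQLE, CYP51A1 and TM7SF2 were chosen after their values were seen, for the size of the gap between Vehicle 3 and the other vehicle tumours. SQLE measured 1445, 1394, 3334 and 2464 in vehicle tumours and 1948 to 2817 in alpelisib tumours; its change after alpelisib was 0.27 ± 0.27 with Vehicle 3 and 0.51 ± 0.25 without it. CYP51A1 measured 1030, 1102, 2375 and 1337 in vehicle tumours, and its change after alpelisib was -0.17 with Vehicle 3 and 0.09 without. TM7SF2 measured 954.6, 968.5, 204.6 and 786.3, and its change after alpelisib was 0.55 ± 0.38 with Vehicle 3 and 0.01 ± 0.23 without. For these 3 genes the difference from vehicle thus depended on that library, and their adjusted p with it was at least 0.402 after alpelisib. DHCR7 and NSDHL had changes of 0.44 and 0.44 after alpelisib (adjusted p = 0.324 and 0.305), FDFT1 0.32, LSS 0.10 and SC5DL -0.30; the change of SC5DL was -0.15 without Vehicle 3.

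**Figure D2:**
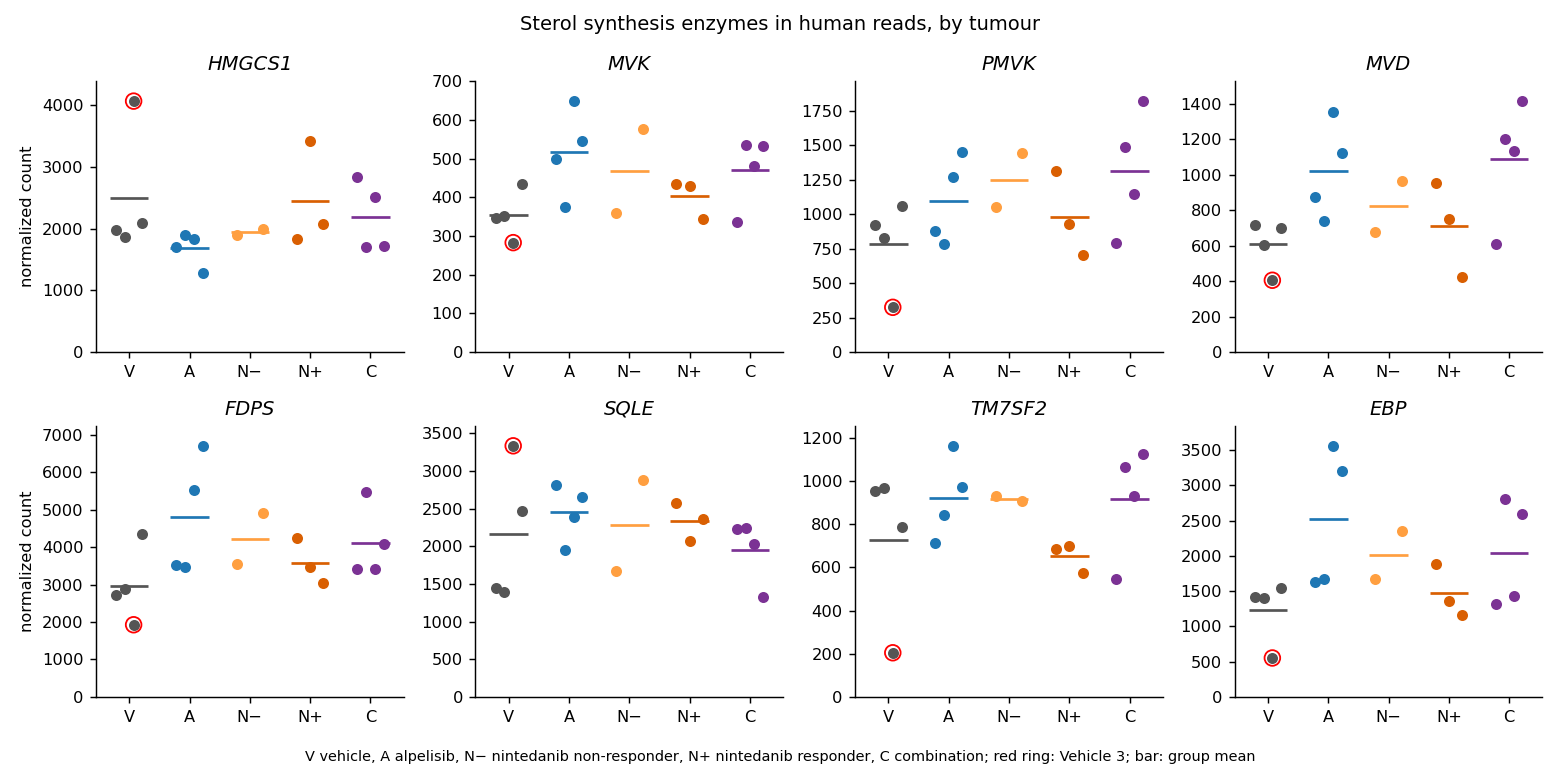
Normalized counts of 8 sterol enzymes in each tumour (vertical axis, linear from 0), with the mean of each group as a bar and Vehicle 3 ringed in red. Vehicle 3 is the highest vehicle tumour for HMGCS1 (4066) and SQLE (3334) and the lowest for MVK, PMVK, MVD, FDPS, TM7SF2 and EBP (551.7).

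Among the regulators and the sterol carrier, all 4 changes were negative after nintedanib and after the combination, and 3 of 4 after alpelisib, with 0 passing the test. INSIG1 retains SCAP and SREBPs in the endoplasmic reticulum and is itself an SREBP target. It measured 923.2, 1010, 1051 and 1106 in vehicle, and 927.4, 746.4, 907.4 and 894.9 in alpelisib tumours. Nintedanib tumours had 901.6 and 990.4 (non-responders) and 968.6, 881.2 and 739.7 (responders), and combination tumours 793.6, 802.5, 682.8 and 695.4. All 4 combination tumours lay below all 4 vehicle tumours, whereas the alpelisib and nintedanib tumours overlapped the vehicle range. The change of the combination was -0.46 ± 0.15 (95% interval -0.78 to -0.14, adjusted p = 0.146), against -0.24 ± 0.15 for alpelisib and -0.19 ± 0.14 for nintedanib. Here Vehicle 3 had little weight: without it the combination change was -0.45 ± 0.16. INSIG1 passed with DESeq2 (adjusted p = 0.0456; 3.41% of all genes called) and when libraries were scaled by total reads (-0.76, adjusted p = 0.0422; 0.764% called). Total-read scaling moved the median of all genes by -0.30, and the change of INSIG1 moved by about as much; over all alternatives its adjusted p ranged from 0.0422 to 0.298. INSIG1 also had the smallest spread within groups of the 31 genes, with an SD of 0.14 on the log2 scale. The departure from additivity of INSIG1 was -0.03 ± 0.21 (95% interval -0.47 to 0.41).

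SREBF1 measured 9441, 9603, 10865 and 9251 in vehicle, 12395, 9253, 10630 and 9276 in alpelisib, and 6244, 9847, 10201 and 8417 in combination tumours. Nintedanib non-responders had 7319 and 9717 and responders 7569, 8556 and 8170. The groups overlapped, with changes of 0.08 (0.13 without Vehicle 3), -0.25 and -0.20 after alpelisib, nintedanib and the combination. SREBF2 was narrow in vehicle tumours (2810, 2767, 2963 and 2989) and wide in the treated ones: 3692, 1778, 1431 and 2191 after alpelisib, 2840, 1988, 3633 and 1376 after the combination. In nintedanib tumours SREBF2 was at 2146 and 2261 (non-responders) and 1528, 3863 and 2425 (responders). Its changes of -0.44 ± 0.32, -0.30 ± 0.30 and -0.32 ± 0.32 had adjusted p of 0.432, 0.695 and 0.611. STARD4, which carries cholesterol between membranes, measured 394.7, 386.8, 746.3 and 370.8 in vehicle and 437.6, 347.5, 298.5 and 206.8 in alpelisib tumours. It measured 237.0 and 286.3 in non-responders, 251.8, 594.5 and 448.8 in responders, and 411.5, 226.7, 366.3 and 223.5 in combination tumours. Its change after the combination was -0.62 ± 0.31 with Vehicle 3 (adjusted p = 0.303) and -0.38 ± 0.30 without.

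The fatty acid enzymes start with ACLY and ACSS2, which supply acetyl-CoA from citrate and acetate. ACACA makes malonyl-CoA, FASN builds palmitate, ELOVL5 and ELOVL6 lengthen fatty acids, SCD, FADS1 and FADS2 introduce double bonds, and GPAM begins glycerolipid synthesis. After alpelisib, ACSS2 had an unadjusted p under 0.05 in the higher direction, and GPAM and ELOVL5 in the lower direction.

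ACSS2 measured 1106, 1044, 1390 and 1679 in vehicle and 2250, 1616, 1882 and 2097 in alpelisib tumours. The nintedanib tumours had 1065 and 1805 (non-responders) and 1631, 1348 and 1633 (responders), and the combination tumours 1284, 2348, 1690 and 1055. Alpelisib 2 was the only alpelisib tumour below the highest vehicle tumour, Vehicle 4. The change was 0.60 ± 0.24 after alpelisib (adjusted p = 0.235) and 0.25 ± 0.24 after the combination. ACLY, which supplies acetyl-CoA by the other route, had changes of 0.02, -0.11 and -0.24 after alpelisib, nintedanib and the combination, and of 0.18, 0.05 and -0.08 without Vehicle 3.

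GPAM had a change below 0 in each comparison with vehicle. Its levels were 245.8, 244.1, 319.0 and 171.7 in vehicle and 145.5, 167.2, 152.0 and 121.7 in alpelisib tumours. They were 212.1 and 172.7 in non-responders, 119.5, 258.8 and 167.6 in responders, and 197.6, 95.68, 186.9 and 142.5 in combination tumours. The alpelisib and vehicle tumours did not overlap, by a margin of 167.2 against 171.7. The change was -0.71 ± 0.27 after alpelisib (adjusted p = 0.227), -0.41 ± 0.26 after nintedanib (-0.27 without Vehicle 3) and -0.67 ± 0.27 after the combination (adjusted p = 0.207).

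ELOVL5 was at 1849, 1675, 1557 and 1550 in vehicle, 1187, 1127, 1171 and 1528 in alpelisib and 1531, 1043, 1287 and 1145 in combination tumours. Non-responders had 1631 and 1234, and responders 1034, 1583 and 1362. Both the alpelisib and the combination tumours lay below all vehicle tumours, although Alpelisib 4 (1528) and Combination 1 (1531) did so narrowly against the lowest vehicle value of 1550. The changes were -0.41 ± 0.18 (adjusted p = 0.251) and -0.42 ± 0.18 (adjusted p = 0.241), and they were -0.44 and -0.45 without Vehicle 3. ELOVL6 measured 119.6 to 201.2 in vehicle, 101.0 to 147.6 in alpelisib, 83.92 to 198.7 in nintedanib and 77.99 to 185.6 in combination tumours, with overlapping groups and changes of -0.39, -0.22 and -0.12.

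SCD, the delta-9 desaturase, had the highest counts of the list in every library, which is not a comparison between genes because counts were not divided by transcript length. It measured 29559, 29165, 53881 and 46478 in vehicle and 54109, 41386, 41752 and 39928 in alpelisib tumours. Non-responders had 23477 and 34996, responders 28048, 36124 and 38153, and combination tumours 29797, 34211, 36432 and 17787. All 4 combination tumours were below all 4 alpelisib tumours, a change of -0.63 ± 0.28 (adjusted p = 0.943), while against vehicle the combination change was -0.43 ± 0.28 (adjusted p = 0.428). Without Combination 4, its lowest library, the change against alpelisib was -0.40 ± 0.28, and without Vehicle 3 the change against vehicle was -0.26 ± 0.28.

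FASN, described after its values were seen, had 3313, 3461, 11110 and 3764 normalized counts in the vehicle tumours, and Vehicle 3 was the highest of all 17 libraries. Alpelisib tumours had 6563, 3164, 4997 and 3976, and combination tumours 4301, 3874, 6955 and 4639. The change of FASN after the combination was 0.04 ± 0.36 with Vehicle 3 and 0.46 ± 0.28 without it, where all 4 combination tumours lay above the remaining 3 vehicle tumours. ACACA was likewise highest in Vehicle 3 (1340, 1475, 2804 and 1393 in the vehicle tumours), with changes after the combination of -0.19 with and 0.06 without Vehicle 3. FADS1 and FADS2 had changes between -0.11 and 0.20 in the 3 comparisons against vehicle; without Vehicle 3 those of FADS2 were 0.07, -0.23 and -0.09 after alpelisib, nintedanib and the combination.

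**Figure D3:**
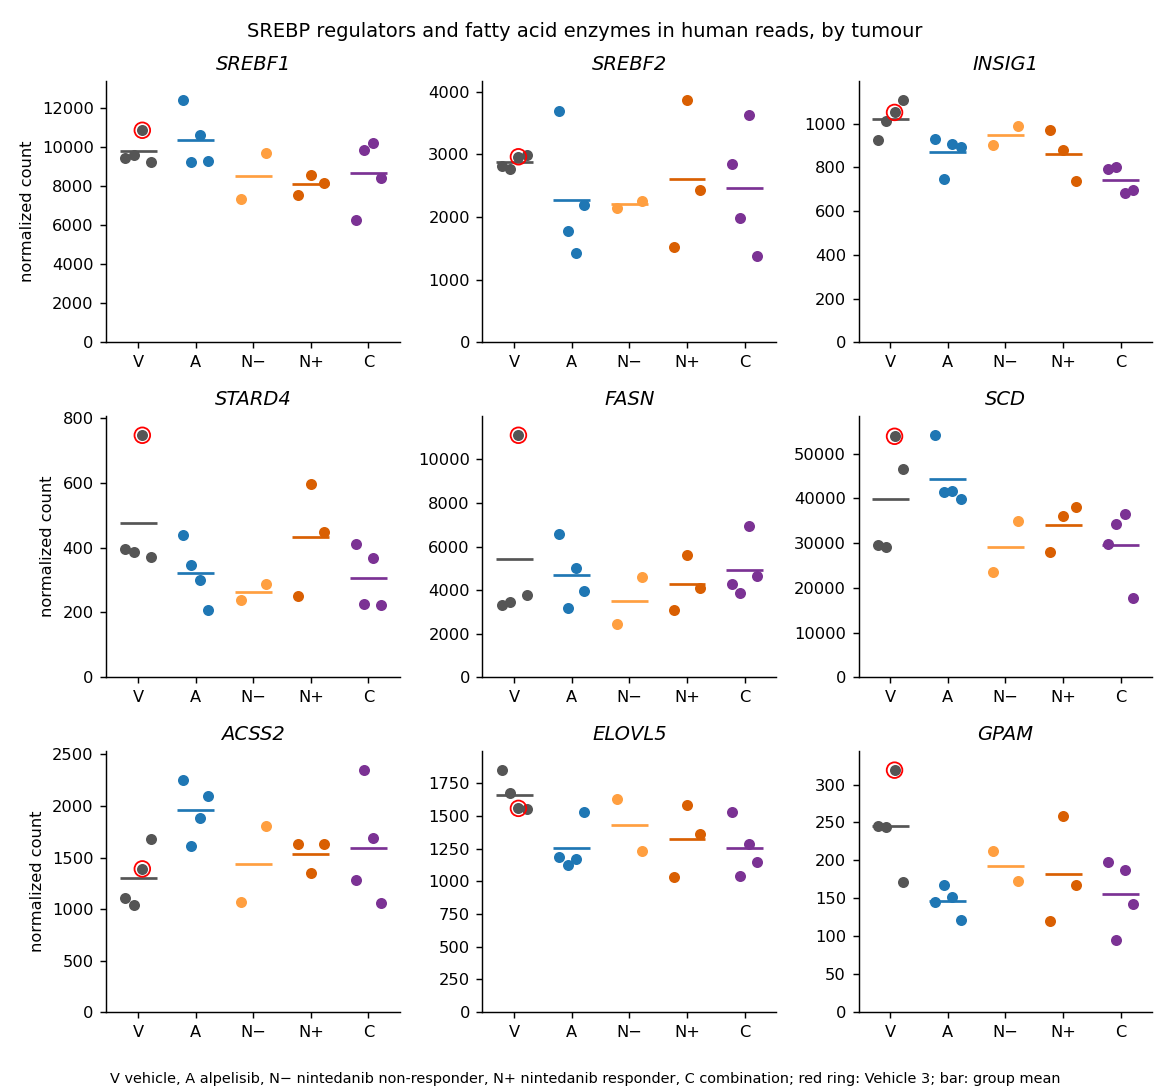
Normalized counts of fatty acid enzymes and regulators in each tumour (vertical axis, linear from 0), with group means as bars and Vehicle 3 ringed in red. INSIG1 and ELOVL5 are lower in all 4 combination tumours than in all 4 vehicle tumours, and Vehicle 3 stands alone for FASN (11110).

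Counted by overlap, 2 genes (EBP, MVD) were higher in all alpelisib than in all vehicle tumours, against 5.89% of all tested genes, and 2 (GPAM, ELOVL5) were lower, against 5.95%. In the combination, 0 genes of the list were higher without overlap (5.27% of all genes) and 2 (INSIG1, ELOVL5) were lower (5.31%). After nintedanib the count was 0 (1.33% of all genes in either direction). The share of the list was thus close to the background of all genes. Without Vehicle 3, a setting chosen for these counts after seeing the data, 4 genes did not overlap after alpelisib (16.4% of all genes), 0 after nintedanib (3.41%) and 3 after the combination (17.2%). The genes at an unadjusted p under 0.05 then numbered 4 (11.9% of all genes), 0 (5.52%) and 3 (16.2%). With Combination 4 also left out, 4 genes did not overlap after the combination (22.4% of all genes) and 2 had an unadjusted p under 0.05 (13.2%).

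Sterol and fatty acid enzymes were compared by the median change of each class, as a description without a test. After alpelisib 13 of 17 sterol enzymes had a change above 0 (52.0% of all tested genes), with a median of 0.32, and 4 of 10 fatty acid enzymes, with a median of -0.08. After nintedanib the numbers were 13 of 17 (49.8% of all genes) with a median of 0.17 and 1 of 10 with a median of -0.25. After the combination they were 10 of 17 (47.2% of all genes) with a median of 0.20 and 3 of 10 with a median of -0.16. The median over all tested genes was 0.03, -0.00 and -0.03 in these comparisons. The sterol median thus exceeded the fatty acid median by 0.41, 0.42 and 0.35, but the 3 comparisons share the same vehicle tumours and are not independent of each other.

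Vehicle 3 entered this difference in both classes. Among the 4 vehicle tumours it was the lowest for 10 and the highest for 6 of the 17 sterol enzymes, and the highest for 5 and the lowest for 1 of the 10 fatty acid enzymes. Over all tested genes it was the highest or lowest vehicle tumour for 83.2%. It differed by more than 1 on the log2 scale from the mean of the other vehicle tumours in 7 of the 31 genes, close to the 26.1% of all tested genes that did so. The largest gaps were 1.66 for FASN, 1.05 for CYP51A1 and 1.04 for HMGCS1 upwards, and -2.13 for TM7SF2, -1.52 for PMVK and -1.40 for EBP downwards. Without Vehicle 3, the sterol median exceeded the fatty acid median by 0.17 after alpelisib, 0.25 after nintedanib and 0.22 after the combination. The fatty acid median after alpelisib then turned from -0.08 to 0.08. Leaving out Nintedanib responder 1 took the nintedanib difference to 0.25, and leaving out Combination 2 took the combination difference to 0.14.

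Seen by tumour, the sterol median exceeded the fatty acid median in 16 of 17 libraries when each gene was set against its vehicle mean, and Vehicle 3 was the exception at -0.51. The other vehicle tumours had 0.16, 0.11 and 0.32. Alpelisib tumours had 0.15, 0.21, 0.51 and 0.58, non-responders 0.29 and 0.62, responders 0.84, 0.07 and 0.26, and combination tumours 0.11, 0.89, 0.05 and 0.19. Each treated group overlapped the vehicle tumours. The mean ± SD was 0.36 ± 0.21 in alpelisib, 0.42 ± 0.31 in nintedanib and 0.31 ± 0.39 in combination tumours. The count depended on Vehicle 3 as part of the reference. Set against the mean of the other 3 vehicle tumours, a reference chosen after seeing the data, the sterol median exceeded the fatty acid median in 10 of 17 libraries: 1 of 4 vehicle, 3 of 4 alpelisib, 3 of 5 nintedanib and 3 of 4 combination tumours. The means were then 0.24 ± 0.26 (SD) for alpelisib, 0.20 ± 0.34 for nintedanib and 0.17 ± 0.35 for the combination.

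**Figure D4:**
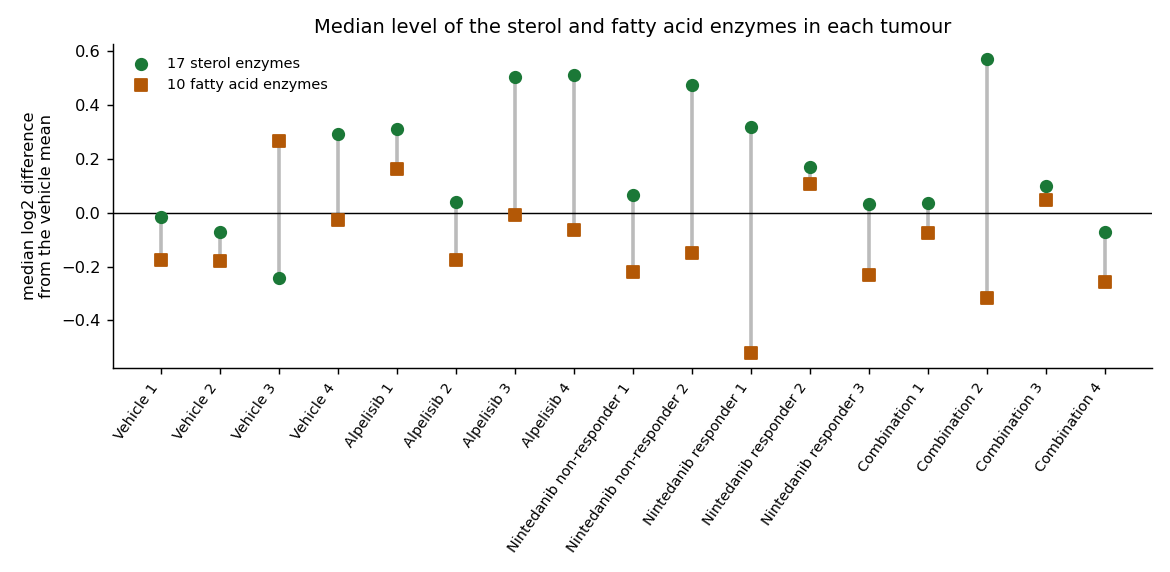
Median log2 difference from the vehicle mean over the 17 sterol enzymes (circles) and the 10 fatty acid enzymes (squares) in each tumour (vertical axis, log2 scale). With this reference the circle lies above the square in all tumours but Vehicle 3 (in 10 of 17 when Vehicle 3 is left out of the reference), and the gap is widest in Combination 2 (0.89) and Nintedanib responder 1 (0.84).

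The scaling also mattered for the sign of these medians. With libraries scaled by total reads, the median of all genes moved by -0.24, -0.16 and -0.30 in the alpelisib, nintedanib and combination comparisons, and the sterol median of the combination turned to -0.11. Under that scaling 11, 10 and 6 of the 17 sterol enzymes and 1, 1 and 0 of the 10 fatty acid enzymes lay above 0. Relative to all genes, the sterol median of the combination was 0.23 under the deposited scaling and 0.23 under total-read scaling, and the fatty acid median -0.13 under each.

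The combination was next compared with each drug alone. Against alpelisib, 6 of 17 sterol enzymes had a change above 0 (49.7% of all tested genes) with a median of -0.15, and the fatty acid median was -0.01. At an unadjusted p under 0.05, 3 genes were lower, HSD17B7, SCD and ACAT2 (-0.41 ± 0.19), against 4.46% of all genes in either direction, and SCD alone did not overlap (1.55% of all genes were lower without overlap). Against nintedanib 1 gene, IDI1, had an unadjusted p under 0.05 (3.83% of all genes), and it alone was lower without overlap (0.908% of all genes). The class medians of that comparison were -0.02 for sterol and 0.01 for fatty acid enzymes.

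For the departure from additivity 4 of 17 sterol enzymes had a value above 0 (46.1% of all genes), with a median of -0.32, and 6 of 10 fatty acid enzymes, with a median of 0.17. The sterol values in the combination were thus mostly below the sum of both single-agent changes, as for EBP (-0.82 ± 0.49, adjusted p = 0.662; -0.47 without Vehicle 3) and FDPS (-0.61 ± 0.37, adjusted p = 0.662). ACAT2 (-0.58 ± 0.26) was the only gene of the list at an unadjusted p under 0.05, against 6.85% of all genes. Since the vehicle mean enters this value with a positive sign, it shares Vehicle 3 with the comparisons above, and without that library the class medians were -0.30 and 0.03.

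Nintedanib responders and non-responders differed in none of the 31 genes at an unadjusted p under 0.05 (1.63% of all genes). CYP51A1 was higher in the 3 responders (1356, 1406 and 1689) than in the 2 non-responders (1020 and 1214), and TM7SF2 was lower (684.2, 699.3 and 574.2 against 930.8 and 908.2). These were the only 2 genes of the list without overlap, against 14.5% of all genes, and their changes were 0.41 ± 0.30 and -0.50 ± 0.48. With 3 against 2 tumours and the conflict in the labels, the direction of this comparison rests on the titles.

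The spread within groups was similar in both classes. The median SD within groups on the log2 scale was 0.37 for sterol enzymes, 0.37 for fatty acid enzymes and 0.39 for all tested genes, and without Vehicle 3 it was 0.32, 0.36 and 0.34. TM7SF2 (0.61), FASN (0.57), EBP (0.57) and PMVK (0.55) varied most, and INSIG1 (0.14) and IDI1 (0.21) least. Single tumours also differed across many of the genes at once. Combination 2 was the highest of its group for 10 of 17 sterol enzymes and the lowest for 7 of 10 fatty acid enzymes. Alpelisib 1 was the highest of its group for 5 of 10 fatty acid enzymes and all 4 regulators and carriers. Over all tested genes, Combination 2 was the highest or lowest of its group for 56.9% and Alpelisib 1 for 57.5%. Summed, the 31 genes took 0.3279% of human reads in Combination 4, the lowest share, and 0.771% in Vehicle 3, the highest.

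Other genes of the same network were read from lists beside the 31, and 0 of them passed limma's test in the 3 comparisons with vehicle. Of 10 tested further genes of sterol synthesis and uptake, 9 had a change above 0 after alpelisib (median 0.27), 6 after nintedanib (0.12) and 5 after the combination (0.01). Of all tested genes 52.0%, 49.8% and 47.2% lay above 0. Without Vehicle 3 the medians of this list were 0.33, 0.18 and 0.14. An unadjusted p under 0.05 was reached by 2, 1 and 1 of the 10, against 18.6%, 7.12% and 18.1% of all tested genes. NPC2, which moves cholesterol out of lysosomes, had the largest changes of this list, 0.93 ± 0.28 after alpelisib (adjusted p = 0.209) and 1.06 ± 0.28 after the combination (adjusted p = 0.103); Vehicle 3 was its lowest library (1200, against 2496 to 3120 in the other vehicle tumours).

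Of 9 genes that act in SREBP processing and turnover, 3, 4 and 4 had a change above 0 after alpelisib, nintedanib and the combination. The medians lay between -0.09 and -0.05, and were -0.04, 0.00 and -0.01 without Vehicle 3. An unadjusted p under 0.05 was reached by 0, 0 and 3 (18.6%, 7.12% and 18.1% of all tested genes). MBTPS1, the protease that makes the first cut, had a change of -0.43 ± 0.20 after the combination (adjusted p = 0.268). Of 20 tested further lipogenic genes, 10, 10 and 9 had a change above 0, with medians between -0.03 and -0.00, and 3, 5 and 9 reached an unadjusted p under 0.05, against 18.6%, 7.12% and 18.1% of all tested genes. The 9 after the combination were 6 higher and 3 lower. Within that list, ACACB, the mitochondrial acetyl-CoA carboxylase, had a change of -1.08 ± 0.28 after the combination (adjusted p = 0.0994), with 72.38, 107.2, 64.19 and 58.79 counts in vehicle and 46.68, 41.01, 27.41 and 26.14 in combination tumours. FADS3 had a change of 0.99 ± 0.35 (adjusted p = 0.168) in the same comparison.

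Of 10 tested genes of fatty acid oxidation, 4, 2 and 1 had a change above 0 after alpelisib, nintedanib and the combination, with medians of -0.02, -0.13 and -0.23. Of all tested genes 52.0%, 49.8% and 47.2% lay above 0. An unadjusted p under 0.05 was reached by 3, 1 and 0 of the 10, against 18.6%, 7.12% and 18.1% of all tested genes. PPARA, ACADM and ETFDH had changes of -0.68, -0.58 and -0.43 after alpelisib (adjusted p = 0.241, 0.251 and 0.241). Of 6 LXR receptor and target genes, 4, 3 and 5 lay above 0, and 0 reached an unadjusted p under 0.05. Among 6 tested genes that respond to insulin and phosphoinositide 3-kinase signalling, 2, 2 and 3 lay above 0. At an unadjusted p under 0.05, 1, 0 and 1 of them were higher and 1, 1 and 1 lower. Within this list PIK3IP1 had changes of 0.78 ± 0.27 after alpelisib and 0.96 ± 0.27 after the combination (adjusted p = 0.211 and 0.106). INSR, the insulin receptor, had changes of -0.56 ± 0.24 and -0.65 ± 0.24 (adjusted p = 0.241 and 0.172).

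The mouse counterparts of the 31 genes were read from the mouse reads, which mostly come from host cells, and all 31 were among the 11831 mouse genes tested. None passed: 0 of 31 after alpelisib (0.0% of mouse genes), 0 after nintedanib (0.152%) and 0 after the combination (0.778%), with 2, 2 and 1 at an unadjusted p under 0.05 by limma (10.6%, 8.47% and 16.5% of mouse genes). The median change of the mouse sterol enzymes was 0.35, 0.23 and -0.13 in these comparisons, and that of the mouse fatty acid enzymes -0.16, 0.01 and -0.29. Without Vehicle 3 the sterol medians were 0.18, 0.18 and -0.21 and the fatty acid medians -0.01, 0.05 and -0.05. Pmvk had a change of 1.14 ± 0.35 after the combination (adjusted p = 0.115). Mouse Scd1 was uneven between tumours: 990.4 in Vehicle 4, 2496 in Alpelisib 1 and 1683 in Nintedanib non-responder 2, against 34.8 to 308.1 in the other 14. Adipocyte markers in the mouse reads summed to 605.1 to 1013 in vehicle, 303.5 to 424.5 in alpelisib and 141.5 to 1121 in combination tumours. In nintedanib tumours they summed to 3838 and 4459 in non-responders and to 600.7 to 985.7 in responders. Sebaceous markers were highest in Alpelisib 1 (904.2) and Vehicle 4 (408.5). In the human reads, 15 markers of host cell types summed to 2063 to 9289 per library, mostly counts of COL1A1 (1204 to 8165). COL3A1 reached 935.3 and VWF 450.4, and in Nintedanib non-responder 1 ACTA1 was at 502.2 and MYH4 at 173.2. The adipocyte markers PLIN1, ADIPOQ, CIDEC and LEP did not exceed 12.69, 9.15, 4.937 and 2.171 counts. Conserved genes can yield reads that fit either genome, and their part in these values was not tested.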

How the data were processed

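RNA of 17 tumours was sequenced as polyA libraries (TruSeq v2, paired-end), per the labels' protocols. Reads were mapped separately to hg19 and mm10, with Bowtie, TopHat and DESeq2 named, per the submitters' processing notes; versions, annotation, counter and strand setting are not given in the sources used here. Deposited values are a signal per gene, read counts that the authors divided by a size factor per library. Of the human values 100% came out within 0.001 of a whole read (largest distance 0.000317), and DESeq2 factors of those reads equalled the deposited scaling within 9.09e-08%. Count tools on these reads called 40 (edgeR), 48 (limma-voom) and 496 (DESeq2) human genes in the combination against vehicle.

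The test was limma-trend on log2(value + 1) across all genes with a mean of at least 10, with 5 group means over all 17 libraries, Benjamini-Hochberg adjustment over 14533 human or 11831 mouse genes and a threshold of 0.05, two-sided. The procedure was tested on simulated data. Versions were R 4.3.3, limma 3.58.1, edgeR 4.0.16 and DESeq2 1.42.0. The 31 genes and all lists were chosen with earlier results of these data known. Values of every tumour are given for up to 5 genes per class with the smallest unadjusted p, except ELOVL6, which is given as ranges. In the gene descriptions, others of the list are marked as chosen after their values were seen, except IDI1 and ACACA. Values of ACACB, NPC2 and mouse Scd1, which lie outside the list, are not marked either. Replicate numbers were not treated as pairs. Among vehicle, alpelisib and combination tumours, same-number libraries correlated above 0.1 in 3 of 12 cases, against 14 of 36 for different numbers. With so few pairs and no nintedanib tumours, this check cannot exclude a pairing. Alternatives were other scalings, pseudocounts, filters, tools, a replicate block and leaving out libraries. Motifs in promoters were not analysed here. Of the 31 symbols, 30 are RefSeq symbols and 1 is a synonym. Values of some genes in the wider lists are not reported here.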

Additional observations from a re-analysis of the deposited data

Results flagged for a closer look

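In each group of 4 or 5 tumours, the highest and lowest values were checked for a gap to the nearest other tumour that was large against the range of the group. Of 136 groups of values 10 were marked, and chance marks about 1 in 20. At Vehicle 3 there were 5: HMGCS1 at 4066 normalized counts (1864 to 2087 in the other vehicle tumours), STARD4 at 746.3 (370.8 to 394.7), FASN at 11110 (3313 to 3764), ACACA at 2804 (1340 to 1475), and EBP, the only one below the others, at 551.7 (1400 to 1549). Vehicle 3 also had the fewest human reads (7429753) and the largest ribosomal share of mouse reads (72.92%), and their part in these gene values was not tested.

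ACAT2 was at 1650 in Vehicle 4, above the 1194 to 1265 of the other vehicle tumours. SCD was at 54109 in Alpelisib 1, above 39928 to 41752, and ELOVL5 at 1528 in Alpelisib 4, above 1127 to 1187. HMGCS1 was at 3424 in Nintedanib responder 2, above 1830 to 2077. The sterol median minus the fatty acid median was 0.89 in Combination 2, against 0.05 to 0.19 in the other combination tumours.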

How the results depend on the processing

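The count of genes of the list past the threshold was 0 in every comparison under every alternative run, with the exception of the combination against vehicle, where it was 1 (INSIG1) with total-read scaling (0.764% of all genes called) and 1 with DESeq2 (3.41%); leaving out each library gave 0 to 0. With a replicate block it stayed 0 in the comparisons against vehicle, and the block changed no call. Total-read scaling moved the alpelisib medians to 0.076 for sterol and -0.33 for fatty acid enzymes and the combination medians to -0.11 and -0.46; this scaling moved the median of all genes in the same direction. Without Vehicle 3, genes at an unadjusted p under 0.05 numbered 4 instead of 7 after alpelisib and 3 instead of 6 after the combination. Without Vehicle 3 and Combination 4 they numbered 2 after the combination (13.2% of all genes), and 4 instead of 2 did not overlap (22.4% of all genes). Leaving out libraries can only keep or raise a count without overlap. The cause of the lower count by p was not tested. In all, 306 of the main values under alternatives stayed the same and 10 moved. This tally does not measure how steady single gene changes were. Without Vehicle 3, 15, 23 and 16 of the 31 changes after alpelisib, nintedanib and the combination moved by over 1.5 times or turned sign. Leaving out 1 library at a time gave sterol minus fatty acid medians of 0.17 to 0.54 for alpelisib, 0.25 to 0.55 for nintedanib and 0.14 to 0.52 for the combination. Between the combination and either drug, and between responders and non-responders, this difference took both signs when 1 library was left out. The groups of 2 to 5 tumours limit what could be detected, and a p that missed the threshold does not show that levels were alike. The planned search for promoter motifs was not run.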
